A study of Homo sapiens with 8 samples.

Results

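MDA-MB-231 cells given the high dose of a plant preparation for 24 h differed from untreated cells in 180 of 22109 genes, 94 higher and 86 lower. The genes that rose most were inflammatory and stress genes, with CXCL8, PTGS2, GDF15 and EGR1 about 10 times their control level or more, and the list with the most genes that fell was the DNA replication machinery. The comparison set 2 high-dose arrays against 3 control arrays of a series of 8 arrays, which also holds 3 arrays of a low dose. The groups were taken from the sample titles, and the genes were those rows of the deposited table that carried exactly 1 gene symbol, with the brightest row kept where a symbol was repeated.

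MDA-MB-231 is an established, oestrogen receptor-negative human breast cancer line with a mesenchymal character, derived from a pleural effusion, and each sample's total RNA was hybridised to its own Affymetrix Human Gene 2.1 ST array. The labels disagree on the treatment. The titles and the treatment protocol give a crude ethanol extract of wild yam root diluted in a salt solution, with 15 µg/mL as the low and 30 µg/mL as the high dose. The source and treatment fields instead describe the low samples as treated with 128 µg/mL of an extract of Boswellia serrata, a resin-bearing tree, and the high samples with 46 µg/mL of 3-O-acetyl-β-boswellic acid, a triterpenoid of that resin. Both accounts place the arrays in the same groups, so "high dose" is used here only as the name of the group. The controls are labelled as having no treatment, and no vehicle is named for them. The protocol describes both doses as sublethal, with the cells still attached and of normal shape at harvest.

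The deposited values are on a log2 scale, inferred from their range, so a difference of 1 is a 2-fold change. Background was not recorded in the table, so for a dim gene it is unknown whether any transcript was present. Differences were tested with limma over all 8 arrays, and a gene was called, that is, said to have risen or fallen, at a Benjamini-Hochberg adjusted p under 0.05. All p-values of single genes below are of this kind. The labels do not say that the arrays of a group came from separate cultures, so p-values measure only the spread between these samples, which may be technical. In bulk RNA, fewer cells of a kind and less RNA per cell cannot be told apart.

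Vimentin (VIM, 8.68 to 9.10 in the control arrays and 8.82 to 8.96 at the high dose) and moesin (MSN, 9.84 to 10.25 and 9.86 to 10.16) were high in both groups. They belong to 10 mesenchymal markers, of which 9 lay below 0, with a median of -0.31 beside -0.12 for all genes. Genes with a control mean of 7 to 8, near the level of these markers, had a median of -0.28. The oestrogen receptor gene ESR1 lay between 1.85 and 2.18 on these 5 arrays and the leukocyte gene PTPRC between 0.94 and 1.40. None of 10 mesenchymal, 14 luminal, 8 blood cell, 6 endothelial or 6 fat cell markers measured was called, and at an unadjusted p under 0.05 in limma 4, 2, 0, 1 and 0 of them were lower and none was higher. Of all 22109 genes 11.4% were lower and 3.03% higher at that unadjusted p, the shares against which each unadjusted count here is to be read. Without control array 3, 4 of the 10 mesenchymal markers were called lower, while on the control and high arrays alone none was.

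Arrays within a group were not alike. The upper quartile of the log2 values was 4.92, 4.92 and 4.73 on control arrays 1 to 3 and 4.80 and 4.54 on high-dose arrays 1 and 2. Control array 3 was the lowest of the controls for 46.9% of all genes and the highest for 34.5%. The median change of all genes was -0.12, and 67.4% of genes lay below 0. This median depended on level: it was -0.02 for genes with a control mean below 2 and -0.27 for those at 5 to 6. Leaving out control array 3, low-dose array 3 and high-dose array 2, a set taken from earlier results of these data, gave 562 genes higher and 1001 lower, with 1 high-dose array left, and leaving out control array 3 alone gave 250 and 740. With 2 arrays in the high-dose group, neither can be said to stand apart from the other. Leaving out high-dose array 1 left 13 higher and 6 lower, and leaving out high-dose array 2 left 23 and 1. The counts below are therefore those of 1 setting. None of the 180 called genes changed sign under any of the 20 alternatives that tested it. Both high-dose arrays lay outside the range of the controls for each called gene, so leaving out or weighting arrays could not change a sign.

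The 180 called genes are 0.814% of those tested, the 94 higher 0.425% and the 86 lower 0.389%. Rises were larger than falls: 86 of the 94 genes that rose did so at least 2-fold and 18 at least 4-fold, against 63 and 1 of the 86 that fell. The median change was 1.39 for genes that rose and -1.14 for genes that fell. Both high-dose arrays lay outside the range of the 3 controls for each of the 180 called genes, on the side of the call. The same separation held for 7.07% of all genes above the controls and for 22.9% below them. High-dose array 1 was above array 2 for 78 of the 94 risers and 66 of the 86 fallers, as it was for 64.2% of all genes.

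**Figure D1:**
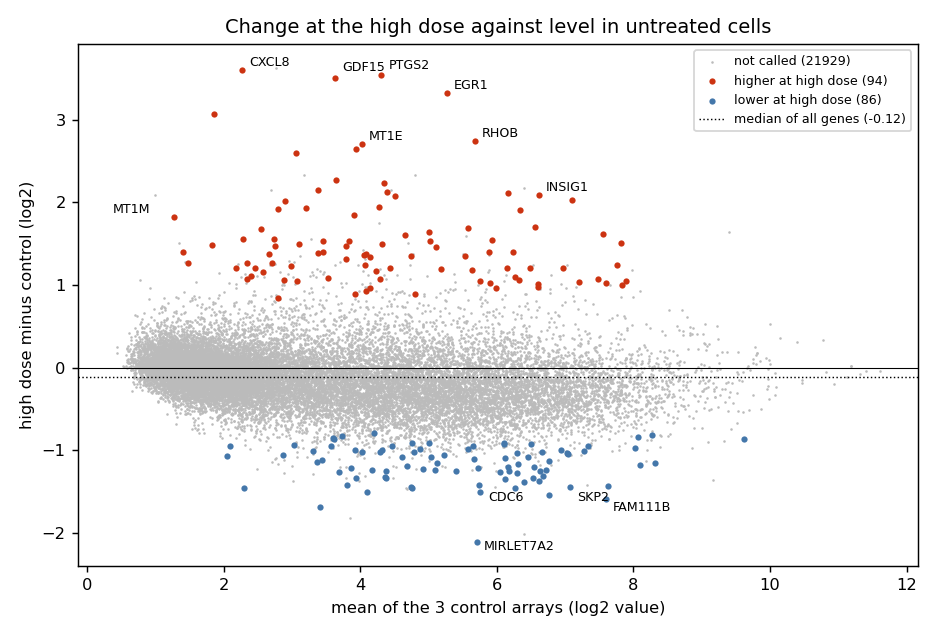
Difference between the high-dose and control means (log2, vertical axis) against the mean of the 3 control arrays (log2 value, horizontal axis) for 22109 genes, with 94 genes called higher in red, 86 called lower in blue and the rest in grey; the dotted line is the median of all genes at -0.12. The rises reach further than the falls, from CXCL8 at 3.61 to MIRLET7A2 at -2.11.

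Inflammatory ligands and the feedback inhibitors of NF-kB were the first group. NF-kB is a transcription factor held in the cytoplasm by IkB proteins until a stimulus such as a cytokine removes them, after which it switches on chemokines, cytokines and its own inhibitors. Of 25 measured genes of this list 6 rose and none fell, with a median change of 0.40 beside -0.12 for all genes. CXCL8, the neutrophil-attracting chemokine interleukin 8, stood at 2.36, 2.30 and 2.16 on the control arrays and at 5.84 and 5.92 at the high dose. That is a change of 3.61 ± 0.16 (SE), or 12.2-fold, with an adjusted p of 3.85e-06, the smallest of the comparison. The controls lay close together and both treated arrays far above them.

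PTGS2, the inducible cyclooxygenase that makes prostaglandin precursors, was at 4.80, 4.81 and 3.33 in the controls and 7.95 and 7.75 at the high dose, a rise of 3.54 ± 0.37 (adjusted p = 0.00217). Control array 3 was well below the other two, and without it the rise was 3.05 (adjusted p = 1.21e-05). IL1A, the alarm cytokine interleukin 1 alpha, was even across the control arrays (1.83, 1.91 and 1.86) and at 4.94 on both treated arrays, a rise of 3.08 ± 0.34 (adjusted p = 0.00366). TNFAIP3, the ubiquitin-editing enzyme A20 that switches NF-kB signalling off, rose by 2.12 ± 0.23 from 4.62, 4.44 and 4.12 to 6.80 and 6.22. The chemokine gene CXCL2 rose by 1.39 ± 0.25 (adjusted p = 0.0327), and its 2 treated values, 4.50 and 5.04, were both above the highest control at 3.69. The sixth member that rose was NFKBIA, which encodes IkB alpha (1.18, adjusted p = 0.0490). Within the same family of ligands CXCL1 changed by -0.07, CCL2 by -0.22, IL1B by 0.24 and TNF by 0.02, none of them called. Leaving out control array 3 left the count at 6, whereas leaving out high-dose array 1 left 1 and array 2 left 3.

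Immediate early transcription factors are made within minutes of a mitogen or stress without new protein synthesis. Of 24 measured, 6 rose and none fell, with a median change of 0.79. EGR1, a zinc finger factor of this class, stood at 5.76, 5.79 and 4.26 in the controls and 8.83 and 8.36 at the high dose, a rise of 3.32 ± 0.39 (adjusted p = 0.00466). KLF2, a Kruppel-like factor, rose by 2.64 ± 0.30, from 4.0, 4.44 and 3.38 to 6.95 and 6.22. ATF3, a stress-induced member of the ATF family, rose by 2.60 ± 0.34, from 3.41, 3.56 and 2.21 to 5.86 and 5.46. JUN, a subunit of the AP-1 factor, rose by 1.62 ± 0.23 and KLF6 by 1.51 ± 0.27, and JUND was the other member called (1.40, adjusted p = 0.0382).

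Control array 3 was the lowest control for 22 of these 24 genes; its part in these differences is given by the values without it. Without it the rise of EGR1 was 2.82, that of ATF3 2.17, that of JUN 1.38 and that of KLF6 1.19, all still called, and the list's median fell from 0.79 to 0.56 with 8 genes higher and 1 lower. The count higher was 2 on the control and high arrays alone, 0 without high-dose array 1 and 1 without array 2. FOS (1.13), JUNB (1.36) and NR4A1 (1.13) did not pass the test. SRF, which encodes the serum response factor that binds the promoters of many genes of this class, and MYC lay lower at -0.87 (adjusted p = 0.0636) and -0.34, neither called with all arrays.

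The promoters of 3 leading genes are shown because they hold the core elements searched for. RefSeq sequences (GRCh38.p14) run from 250 bases before to 50 bases after the annotated start. The CXCL8 window (chr4:73740319-73740618, plus strand) holds a TATA box, TATAAA, whose first base is at -31 from the start, and an AP-1 motif, TGANTCA, at -137. The GDF15 window (chr19:18385908-18386207, plus strand) holds a TATA box at -29. The EGR1 window (chr5:138465229-138465528, plus strand) holds a pair of CArG boxes, the sequence bound by serum response factor, at -105 and -83. Capitals mark these motifs.
CXCL8: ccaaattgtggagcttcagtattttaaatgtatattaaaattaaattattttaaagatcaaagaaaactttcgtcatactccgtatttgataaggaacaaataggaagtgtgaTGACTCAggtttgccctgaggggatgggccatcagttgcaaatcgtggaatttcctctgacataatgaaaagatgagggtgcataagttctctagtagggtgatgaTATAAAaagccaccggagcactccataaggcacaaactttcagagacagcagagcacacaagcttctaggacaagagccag
GDF15: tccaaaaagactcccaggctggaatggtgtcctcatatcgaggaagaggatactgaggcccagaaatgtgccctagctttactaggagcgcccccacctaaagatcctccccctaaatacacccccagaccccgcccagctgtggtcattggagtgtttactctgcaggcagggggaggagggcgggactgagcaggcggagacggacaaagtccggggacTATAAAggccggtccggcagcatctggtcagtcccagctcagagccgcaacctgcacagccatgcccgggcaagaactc
EGR1: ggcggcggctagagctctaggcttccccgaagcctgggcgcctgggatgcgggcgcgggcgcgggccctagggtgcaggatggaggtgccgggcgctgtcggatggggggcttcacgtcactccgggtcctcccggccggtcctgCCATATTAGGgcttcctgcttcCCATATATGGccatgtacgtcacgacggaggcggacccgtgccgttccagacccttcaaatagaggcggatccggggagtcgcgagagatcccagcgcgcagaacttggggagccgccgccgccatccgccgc

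RefSeq promoters were matched for 73 of the 94 genes that rose, 54 of the 86 that fell and 15156 of those tested. A TATA box, TATAAA on the gene's strand starting at -45 or later and ending by -15, was in 11 of 73 promoters of risers (15.1%), 3.70% of those of fallers and 3.35% of all. The NF-kB motif, searched on both strands, was in 10 of 20 promoters of the inflammatory list (50.0%) and 12.3% of all promoters. It was in 8 of the 73 promoters of risers as a whole. The list was chosen partly for its tie to NF-kB, so its share does not describe the genes that rose. Of its risers CXCL2, TNFAIP3 and NFKBIA hold a match, while CXCL8, PTGS2 and IL1A do not. The CArG box, also searched on both strands, was in 2.74% of risers and 1.25% of all. TGANTCA was in 8.22% and 6.02%, and the cyclic AMP response element TGACGTC in 5.48% and 4.51%. A match describes letters in this window and is not evidence of binding. PTGS2 and INSIG1 also carry the TATA box, at -32 and -27.

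**Figure D2:**
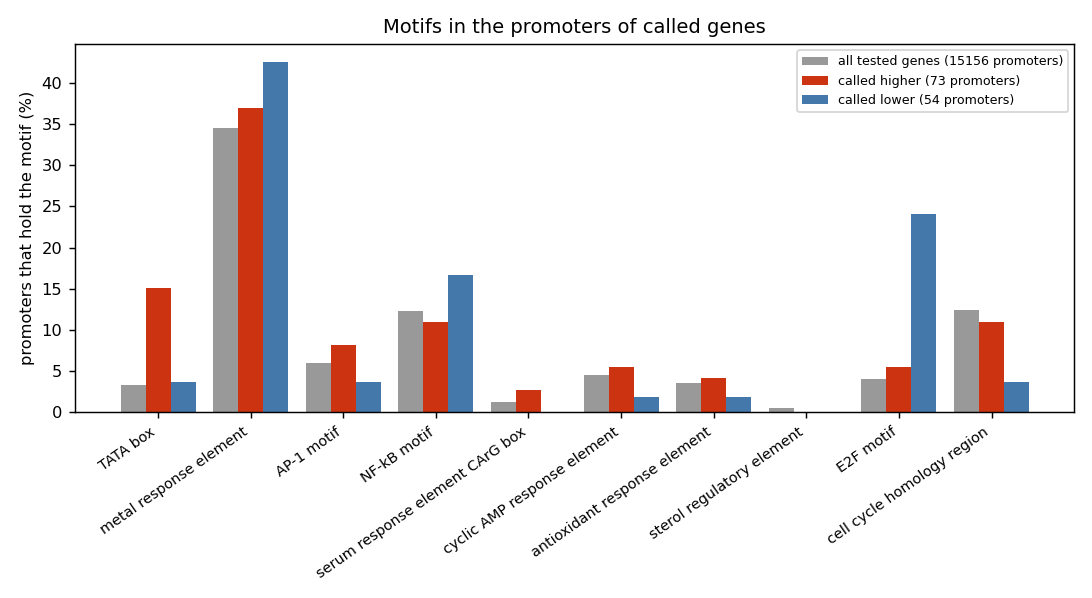
Percent of promoters that hold each of 10 motifs, for all 15156 tested genes with a promoter (grey), the 73 genes called higher (red) and the 54 called lower (blue). The TATA box stands at 15.1% for genes called higher against 3.35% for all, and the E2F motif at 24.1% for genes called lower against 4.09% for all.

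Negative regulators of MAP kinases and ligands of the EGF receptor rose in part. Of 20 measured genes 4 rose and none fell, with a median change of 0.17. DUSP10, a phosphatase that acts on the stress kinases p38 and JNK, went from 6.68, 6.57 and 5.24 in the controls to 8.28 and 8.27, a rise of 2.11 ± 0.35 (adjusted p = 0.0247) that was 1.65 without control array 3. DUSP16, a JNK phosphatase, rose by 1.32 ± 0.21 and SPRY2, an inhibitor of receptor tyrosine kinase signalling, by 1.00 ± 0.18. On the control and high arrays alone and without high-dose array 1 no member was called, and without array 2 only 1 was. The ligand gene EREG, which encodes epiregulin, rose by 1.40 ± 0.26, from 5.72, 5.72 and 6.22 to 7.51 and 7.07. The ERK phosphatase genes DUSP4 (-0.05) and DUSP6 (-0.03) and the ligand genes HBEGF (-0.49) and TGFA (-0.37) were not called.

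**Figure D3:**
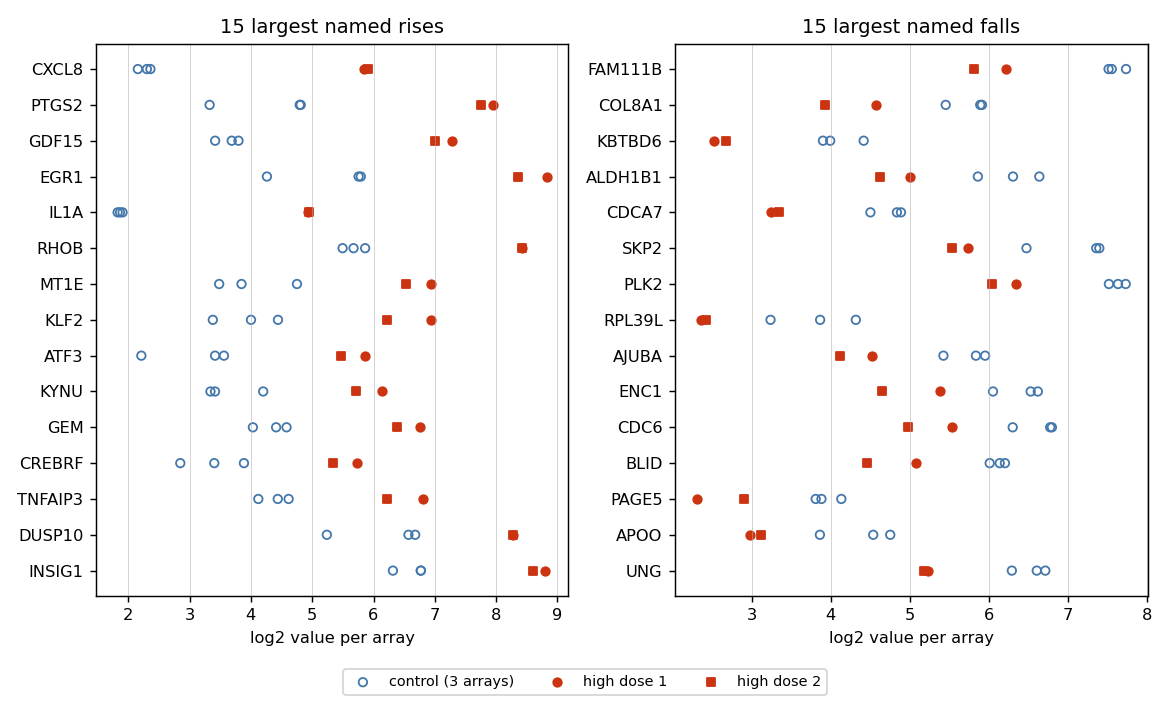
Log2 value of each array for the 15 genes with the largest named rises (left) and falls (right), with the 3 control arrays as open blue circles, high-dose array 1 as a red circle and array 2 as a red square. No treated point overlaps the controls of its gene; PTGS2, EGR1, ATF3, DUSP10 and SKP2 have 1 control, array 3, far from the other two.

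Stress genes of the integrated stress response were divided. In this response, kinases that sense amino acid lack, unfolded protein or haem lack slow translation while the factor ATF4 is made and drives DDIT3, amino acid synthesis and transport. Of 24 measured, 3 rose and none fell, with a median change of 0.15. GDF15, a secreted stress cytokine, rose by 3.51 ± 0.22 (11.4-fold, adjusted p = 5.03e-05), from 3.69, 3.80 and 3.42 to 7.29 and 7.00, and the low-dose arrays lay between at 5.97, 5.95 and 5.36. DDIT3, which encodes the factor CHOP, rose by 1.67 ± 0.17 (adjusted p = 0.00217), from 2.50, 2.52 and 2.63 to 4.38 and 4.07, and its second probe set gave 1.52. SLC7A11, the cystine importer, rose by 1.05 ± 0.21 (adjusted p = 0.0464).

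The enzymes of serine and asparagine synthesis in that list lay below 0. PSPH changed by -0.99 (adjusted p = 0.0657), PSAT1 by -0.83 and ASNS by -0.58, and the amino acid transporter gene SLC7A5 by -0.80, none called. In 20 of the 24 genes control array 3 was the lowest control, and without it the list's median was -0.05 with 4 higher and 3 lower. None of 18 endoplasmic reticulum chaperone genes passed the test (1 higher and 1 lower at an unadjusted p under 0.05), HSPA5 among them at 0.19, with a median of -0.08 that was 0.04 after quantile normalization. None of 10 cytosolic heat shock genes passed (2 higher and 1 lower unadjusted), with DNAJB1 at 0.65 (adjusted p = 0.172) and HSPH1 at 0.41. HSPA6, a strictly inducible HSP70 gene outside that list and singled out after its values were seen, rose by 1.93 (adjusted p = 0.0175), from 3.84, 3.15 and 2.63 to 4.94 and 5.33.

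Of 21 measured genes of the NRF2 antioxidant response, 2 rose and none fell, with a median of 0.06. HMOX1, haem oxygenase 1, rose by 1.95 ± 0.30, from 4.47, 4.70 and 3.65 to 6.35 and 6.08 (adjusted p = 0.0164), and SLC7A11 was the other. GCLC, the catalytic subunit of glutamate-cysteine ligase, changed by 0.93 (adjusted p = 0.0705), while NQO1 (-0.43), GCLM (0.31), TXNRD1 (0.25) and SRXN1 (0.06) were not called. In 19 of the 21 genes the lowest control was array 3, and without it 3 were higher and 2 lower. Without either high-dose array none was called.

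Metallothioneins are small cysteine-rich proteins that bind zinc and copper, and their genes respond to metal through the factor MTF1. MT1E, MT1F and MT1M rose, 3 of 15 genes measured in the list of metallothioneins and zinc handling, whose median was 0.09. MT1E went from 3.48, 4.75 and 3.85 to 6.94 and 6.53, a rise of 2.71 ± 0.34 (6.52-fold, adjusted p = 0.00615). MT1F went from 2.91, 2.85 and 2.63 to 4.29 and 5.15, a rise of 1.92 ± 0.26. MT1M, at 1.38, 1.33 and 1.12 in the controls among the dimmest genes called, reached 3.24 and 2.96, a rise of 1.82 ± 0.18 (adjusted p = 0.00217).

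The low-dose arrays of MT1M were at 1.5, 1.29 and 1.14, within reach of the controls, and the difference of high from low dose was 1.79 (adjusted p = 0.0200). MT1M was the only 1 of the 22109 genes (0.00452%) to pass the test between the doses. For MT1E that difference was 1.63 (adjusted p = 0.300) and for MT1F 1.04 (adjusted p = 0.334). MT1X, the brightest member, was at 8.31, 8.53 and 7.11 in the controls and 9.31 and 9.02 at the high dose (1.18, adjusted p = 0.158), and MT2A changed by 0.29. The zinc exporter gene SLC30A1, another gene under MTF1, changed by 0.67 (adjusted p = 0.115), with both treated arrays (7.47 and 7.36) above the controls (6.62, 6.67 and 6.95). MTF1 itself changed by -0.08, SLC39A10 by -0.09 and SLC30A2 by 0.09. MT1G (0.45), MT1B (-0.00), MT1H (-0.12), MT1L (-0.06), MT3 (-0.25) and MT4 (-0.22) were not called. Metallothionein genes are near-identical copies of one another, so the probe sets may share signal and the member that rose is uncertain. The core of the metal response element, TGCACNC or TGCGCNC on either strand, was in 7 of 9 promoters matched for this list (77.8%). No promoter was matched for MT1E, MT1F or MT1M, so the element was not searched in those genes. It was in 34.5% of all promoters, 37.0% of those of risers and 59.1% of those of the replication list. The count of 3 risers was 2 without high-dose array 1 and 1 without array 2.

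**Figure D4:**
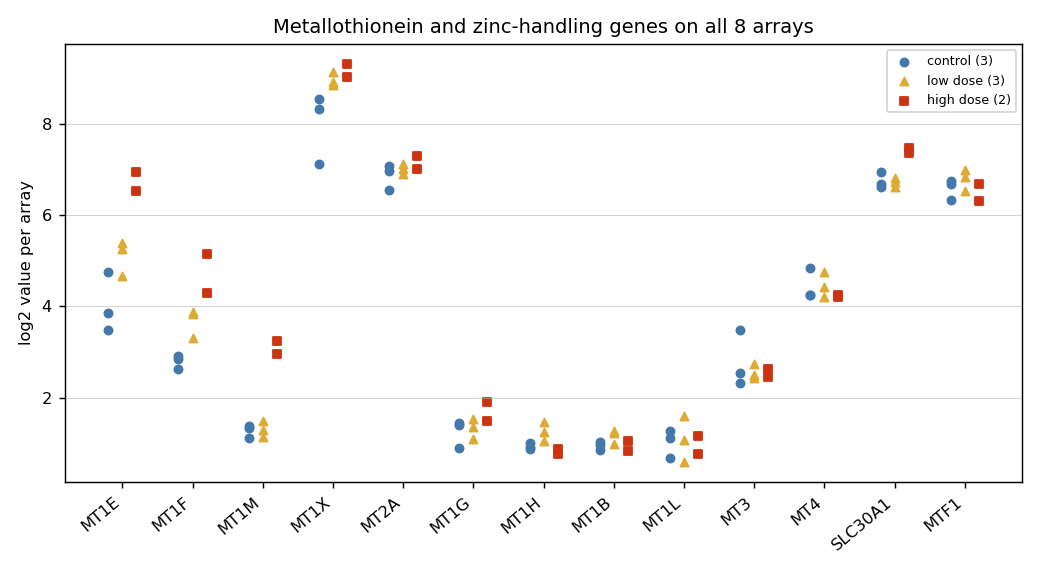
Log2 value on each of the 8 arrays (3 control in blue, 3 low-dose in yellow, 2 high-dose in red) for 13 metallothionein and zinc-handling genes. MT1M stands at 2.96 and 3.24 at the high dose and between 1.12 and 1.5 on the other 6 arrays, while MT2A, MT3, MT4 and MTF1 overlap between groups.

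Cholesterol synthesis genes are driven by SREBP2, a membrane-bound factor released when sterol in the endoplasmic reticulum runs low and retained there by INSIG proteins. Of 19 measured genes of synthesis and uptake, 4 rose and none fell, with a median of 0.31. INSIG1 rose by 2.09 ± 0.19 (adjusted p = 0.00146), from 6.77, 6.77 and 6.32 to 8.80 and 8.61. HMGCS1, which makes the precursor HMG-CoA, rose by 1.61 ± 0.21, from 4.82, 4.71 and 4.43 to 6.52 and 6.0. IDI1, an isomerase of the isoprenoid steps, rose by 1.17 ± 0.17 and MSMO1, a sterol oxidase, by 1.02 ± 0.16. SQLE (0.86), SREBF2 (0.51), DHCR7 (0.31) and FDPS (0.24) did not pass. Without control array 3 the count was 6, on the control and high arrays alone 2, and without high-dose array 1 or 2 it was 1 or 2. In the same controls' comparison with the low dose, in which 1.19% of all genes were called higher, 8 of the 19 rose and the list's median was 0.77.

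None of 14 fatty acid synthesis genes passed (2 higher and 3 lower at an unadjusted p under 0.05), with ACSS2 at 0.74, SCD at 0.45, FASN at -0.04 and ACACA at -0.71, and their median of -0.11 was 0.09 after quantile normalization. Of 8 genes of LXR and cholesterol efflux NPC1 alone rose. It exports cholesterol from the lysosome and went from 6.84, 6.82 and 6.02 to 8.42 and 8.11 (1.71 ± 0.26, adjusted p = 0.0164). ABCA1, the LXR-induced pump that loads cholesterol onto apolipoprotein A-I, changed by -1.02 (adjusted p = 0.159), with controls at 5.06, 5.18 and 4.01 and treated arrays at 3.61 and 3.85. Without control array 3 the value for ABCA1 was -1.39 and it was called lower.

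Among 31 autophagy and lysosome genes, 3 rose and none fell, with a median of 0.07. Besides NPC1 these were GABARAPL1 (1.40 ± 0.21) and MAP1LC3B (0.84 ± 0.16), whose proteins are conjugated to the autophagosome membrane. MAP1LC3B was at 2.76, 2.71 and 2.92 in the controls and 3.65 and 3.62 at the high dose, the smallest rise called. SQSTM1 (0.92), CTSL (1.00) and NEU1 (0.96) did not pass. Quantile normalization gave 8 of 31 higher and a median of 0.27, and the count was 0 on the control and high arrays alone and without either high-dose array. In the list of hypoxia and glycolysis, 2 of 25 rose, the glucose transporter gene SLC2A3 (1.36 ± 0.19) and ADM, which encodes adrenomedullin (0.90 ± 0.17), while the median was 0.00. The glycolytic enzymes LDHA (-0.23), PGK1 (-0.20) and ENO1 (-0.31) did not pass. KYNU, kynureninase of tryptophan breakdown, rose by 2.27 ± 0.26, from 3.34, 3.41 and 4.20 to 6.13 and 5.72. It was the only 1 of 16 genes called in its list, in which CYP1A1 changed by -0.18 and CYP1B1 by 0.95 (adjusted p = 0.168).

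Other genes with large rises belong to none of these lists. RHOB, a small GTPase of endosomes and actin, rose by 2.74 ± 0.17 (6.69-fold, adjusted p = 5.03e-05), from 5.50, 5.67 and 5.86 to 8.42 on both arrays. GEM, a GTPase that inhibits calcium channels, rose by 2.23 ± 0.22, from 4.58, 4.41 and 4.03 to 6.77 and 6.38. CREBRF, a regulator of the factor CREB3, rose by 2.15 ± 0.28. MMP1, the interstitial collagenase, rose by 1.21 ± 0.17 from 7.05, 6.95 and 6.90 to 8.17 and 8.19. It was the only riser among 32 matrix genes, of which COL8A1 was the only faller. SULT1C2, a sulfotransferase (1.26, adjusted p = 0.0399), was among the 5 called genes whose treated arrays differed most, at 3.58 and 4.37.

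Of the lists, DNA replication held the most genes that fell. They are transcribed in late G1 by E2F factors once the retinoblastoma protein is phosphorylated, and encode the origin licensing proteins, the MCM helicase, the polymerases, the clamp PCNA and nucleotide enzymes. Of 50 measured, 18 fell and none rose, 49 lay below 0 and the median was -0.92 beside -0.12 for all genes. Both treated arrays were below all 3 controls for 45 of the 50.

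CDC6, which loads the helicase at origins, fell by 1.37 ± 0.24 on the log2 scale, from 6.80, 6.77 and 6.30 to 5.53 and 4.98 (adjusted p = 0.0277). MCM6, a subunit of that helicase, fell from 6.81, 6.84 and 6.39 to 5.46 and 5.26 (-1.32 ± 0.20, adjusted p = 0.0163). PRIM1, the catalytic primase subunit, fell from 6.02, 6.19 and 6.31 to 5.05 and 4.79 (-1.25 ± 0.17, adjusted p = 0.00918). In each of the 3 genes the higher treated array lay well below the lowest control. RFC2, a subunit of the clamp loader, changed by -1.27 ± 0.22 and UNG, the uracil DNA glycosylase, by -1.33 ± 0.19, both called. The other members that fell were MCM3, MCM10, CCNE2, DSCC1, POLE2, E2F2, TYMS, SLBP, GINS1, GINS4, CDC7, E2F8 and PCNA, from -1.20 to -0.82. MCM2 (-0.82), MCM4 (-0.97), MCM5 (-0.84), MCM7 (-0.73), RRM2 (-0.59) and E2F1 (-0.96) were lower without passing. E2F7, a repressor of the same genes, was the 1 member above 0, at 0.49.

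How many replication genes passed depended on the arrays. Without control array 3 the count was 37, on the control and high arrays alone 1, and without high-dose array 1 or array 2 it was 0. The list's median stayed between -1.05 and -0.69 in those fits and after quantile normalization. In the comparison of the low dose with the same controls, in which 1.81% of all genes were called lower, 31 of the 50 fell, with a median of -0.95.

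The promoters of MCM6 (chr2:135876394-135876693, minus strand) and CDC6 (chr17:40287629-40287928, plus strand) are shown for their E2F motifs, TTTGGCG or TTTCGCG on either strand, in capitals. In MCM6 they form overlapping pairs on opposite strands, with first bases at -152 and -147 and at -90 and -85. In CDC6 they lie at -28 and 7. The windows of UNG, RFC2 and PRIM1, the other members of the list with the largest falls, hold no E2F motif and are not shown.
MCM6: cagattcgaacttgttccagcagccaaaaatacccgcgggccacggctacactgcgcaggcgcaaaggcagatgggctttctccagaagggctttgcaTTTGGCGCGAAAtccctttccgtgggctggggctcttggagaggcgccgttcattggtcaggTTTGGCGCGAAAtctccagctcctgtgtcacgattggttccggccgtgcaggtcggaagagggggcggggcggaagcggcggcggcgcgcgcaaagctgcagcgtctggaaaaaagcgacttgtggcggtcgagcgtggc
CDC6: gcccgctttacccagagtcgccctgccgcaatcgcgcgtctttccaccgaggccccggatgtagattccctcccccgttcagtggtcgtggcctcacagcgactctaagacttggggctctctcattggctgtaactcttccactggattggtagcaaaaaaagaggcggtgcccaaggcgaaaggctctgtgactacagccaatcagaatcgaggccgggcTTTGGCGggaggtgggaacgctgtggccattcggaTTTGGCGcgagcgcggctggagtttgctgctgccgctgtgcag

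The E2F motif was in 13 of 54 promoters of genes that fell (24.1%), 5.48% of those that rose and 4.09% of all, and in 40.9% of 44 matched replication promoters. The sequence TTTGAA, the cell cycle homology region searched on both strands, was in 57.9% of 38 matched promoters of mitosis genes and 12.4% of all, but in 3.70% of genes that fell.

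Mitosis genes act later in the cycle, in building the spindle and separating the chromosomes. Of 46 measured 2 fell and none rose, with a median of -0.51, and 18 were lower at an unadjusted p under 0.05. The 2 were CDC25A, a phosphatase that activates the kinases of S phase entry (5.89, 5.82 and 5.27 against 4.63 and 4.47, -1.11 ± 0.21), and SPC24, a kinetochore subunit (6.24, 6.48 and 6.15 against 5.44 and 5.07, -1.04 ± 0.19). AURKA changed by -0.81 (adjusted p = 0.0790), CCNB1 by -0.40, CDK1 by -0.44, PLK1 by -0.37 and TOP2A by -0.36. Control array 3 was the highest control for 40 of the 46 genes. Without it the median was -0.29 with 3 genes lower, and without control array 3, low-dose array 3 and high-dose array 2 it was -0.14. On the control and high arrays alone, and without either high-dose array, none was called. Against the same controls the low dose had 43 of 46 lower, with a median of -1.37, and no mitosis gene passed the test between the doses.

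None of 19 homologous recombination and Fanconi anaemia genes was called, although all 19 lay below 0 with a median of -0.72. For 17 of them both treated arrays lay below the controls, and 14 were lower at an unadjusted p under 0.05. BRIP1 (-1.06, adjusted p = 0.0566), EXO1 (-0.96) and UBE2T (-0.74) were the nearest to passing. None of 12 replication-dependent histones was called (1 higher and 3 lower unadjusted). H2BC14 had the largest difference, -2.02, but its controls were at 7.42, 7.23 and 4.55, so that control array 3 lay near the treated arrays (4.45 and 4.31).

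**Figure D5:**
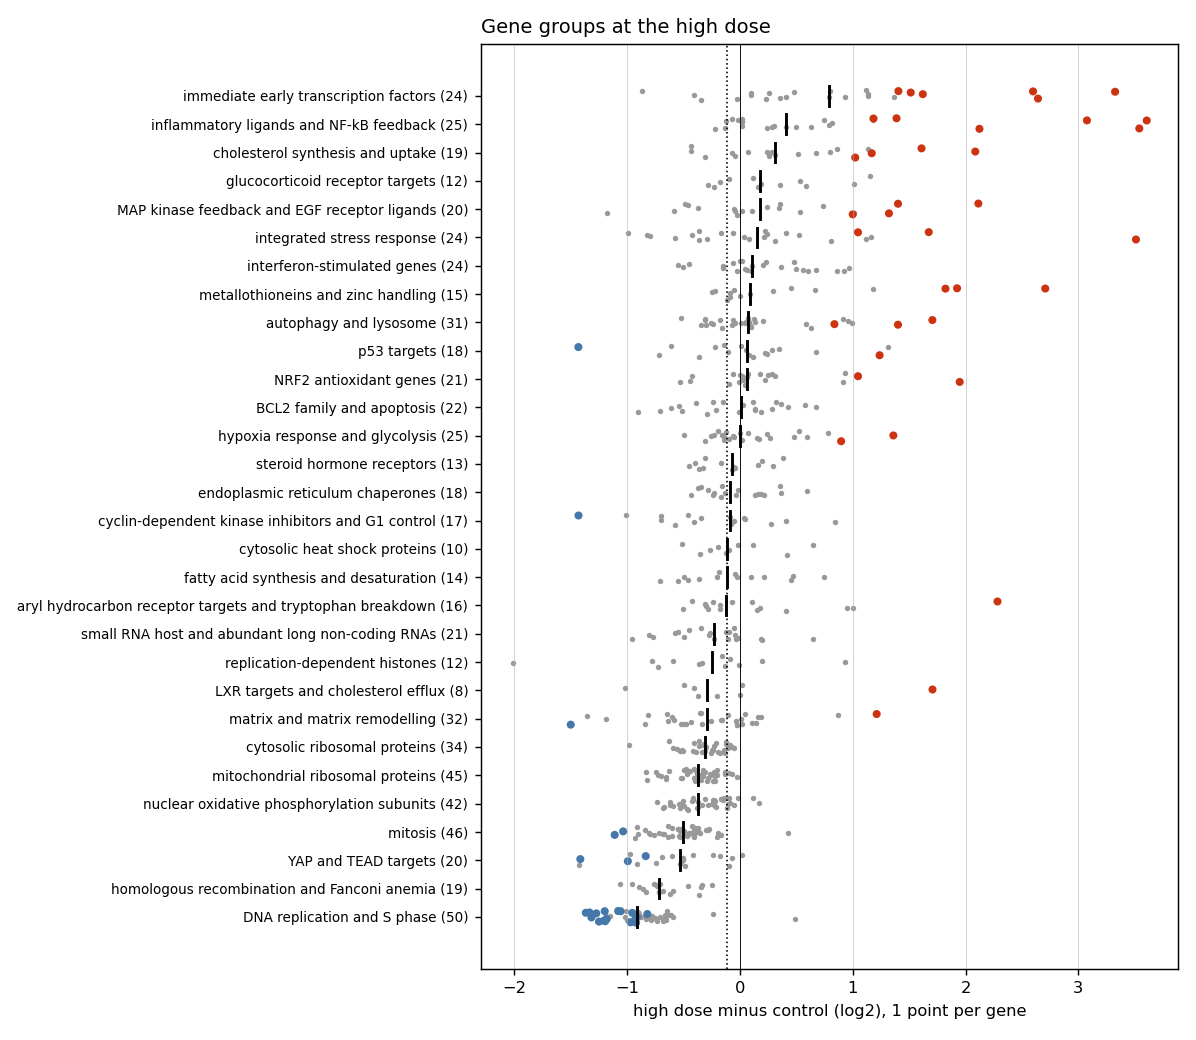
Difference of high dose from control (log2) for each measured gene of 30 lists, 1 point a gene, with genes called higher in red, called lower in blue and not called in grey; black bars are list medians, the dotted line the median of all genes at -0.12, and the number of genes measured is in brackets. The inflammatory and immediate early lists hold the most red points, 6 each, and DNA replication the most blue points, 18, with a median of -0.92.

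Of 17 regulators of G1, SKP2 alone was called. This F-box protein marks the inhibitor p27 for destruction, and its gene fell by 1.44 ± 0.28 on the log2 scale, from 7.36, 7.39 and 6.47 to 5.74 and 5.53 (adjusted p = 0.0444). The gene of p27, CDKN1B, changed by 0.04, and CDKN1C by 0.84 (adjusted p = 0.0798). CCND1 and CDK6 each changed by -0.70 and RBL1, a pocket protein, by -1.01, none called. CDKN1A, the gene of p21, was at 4.62, 4.33 and 3.27 in the controls and 5.38 on both treated arrays (1.31, adjusted p = 0.116), and without control array 3 it was 0.91 and called. Among 18 p53 targets, TP53INP1 rose by 1.24 ± 0.16, the kinase gene PLK2 fell by 1.43 ± 0.18 and MDM2 changed by 0.12. None of 22 genes of the BCL2 family and apoptosis was called (1 higher and 4 lower at an unadjusted p under 0.05), with PMAIP1 at 0.67, BCL2L1 at -0.90 and MCL1 at 0.43. Without control array 3, PMAIP1 was called higher and BCL2L1 lower.

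Targets of YAP and TEAD, the transcription pair of the Hippo pathway that senses cell contact and tension, followed. Of 20 measured 3 fell and none rose, with a median of -0.53. AJUBA, a LIM protein that inhibits LATS kinases, fell by 1.42 ± 0.21 on the log2 scale, from 5.83, 5.95 and 5.42 to 4.53 and 4.12 (adjusted p = 0.0163). AMOTL2, an angiomotin that binds YAP, changed by -0.99 ± 0.19 and TGFB2, the growth factor TGF-beta 2, by -0.84 ± 0.16, both called. CCN2 (-1.42, adjusted p = 0.0715) and CCN1 (-0.98, adjusted p = 0.0770) did not pass, and YAP1 itself changed by -0.17. Control array 3 was the lowest control for 19 of the 20 genes, and without it 7 were lower and the median was -0.68. On the control and high arrays alone, and without either high-dose array, none was called. Collagen COL8A1 fell by 1.5 ± 0.27 on the log2 scale, from 5.91, 5.89 and 5.45 to 4.58 and 3.92, while THBS1 (-1.36) and COL5A1 (-1.19) did not pass.

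Among the falls outside small RNAs, T cell receptor segments and the other classes left out of naming, the largest was FAM111B, a protease gene of dividing cells, from 7.73, 7.55 and 7.51 to 6.22 and 5.81 (-1.59 ± 0.20, 3.00-fold, adjusted p = 0.00560). CDCA7, a cofactor of the chromatin remodeller HELLS, fell from 4.84, 4.89 and 4.50 to 3.25 and 3.35 (-1.44 ± 0.18). The adaptor KBTBD6 (-1.5 ± 0.20), the mitochondrial aldehyde dehydrogenase ALDH1B1 (-1.45 ± 0.24) and the actin-binding ENC1 (-1.38 ± 0.26) fell as well. RPL39L, a ribosomal protein gene near-identical to other copies and so uncertain, changed by -1.42 (adjusted p = 0.0490). PAGE5 and APOO, a mitochondrial cristae protein, both had a change of -1.34 and adjusted p of 0.0403 and 0.0490. All these genes had both treated arrays below every control.

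Housekeeping groups lay below 0 without calls. None of 34 cytosolic ribosomal protein genes (median -0.31), 42 nuclear oxidative phosphorylation genes (-0.37) or 45 mitochondrial ribosomal protein genes (-0.37) passed, and after quantile normalization these medians were -0.09, -0.16 and -0.18. All genes with a control mean of 5 to 6, near the level of these lists, had a median of -0.27 in the main fit. At an unadjusted p under 0.05, 6, 16 and 11 of them were lower and none higher. RPS25 was nearest to passing, at -0.99. None of 24 interferon-stimulated genes was called (median 0.10, 6 higher and 2 lower unadjusted), with ISG20 at 0.96 (adjusted p = 0.0738), IFIT2 at 0.92 and IFIH1 at 0.86. After quantile normalization 4 of them were higher. None of 12 glucocorticoid receptor targets (median 0.18, 5 higher unadjusted) was called, with KLF9 at 1.16 (adjusted p = 0.0552), DUSP1 at 1.01 (adjusted p = 0.334) and TSC22D3 at 0.58. None of 13 steroid and related nuclear receptors was called or had an unadjusted p under 0.05, with NR1D2 at 0.38, RXRA at -0.40 and VDR at -0.31.

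Of 1846 long non-coding RNAs tested, TLR8-AS1 rose (1.36, adjusted p = 0.0277) and 8 fell. That is 0.488% called, beside 0.814% of all genes. These RNAs were dim, with a median control level of 1.88 beside 3.40 for protein-coding genes. The share called depended on level, from 0.067% of genes with a control mean below 2 to 2.19% of those at 6 to 7. LINC02984 fell from 7.03, 6.68 and 6.60 to 5.65 and 4.80 (-1.54 ± 0.26), and its treated arrays were among the furthest apart. PCNA-AS1 (-1.27), LINC01116 (-1.24) and GAS6-DT (-1.22) were the next. PCNA-AS1 overlaps PCNA and GAS6-DT adjoins GAS6, whose own changes were -0.82 and -1.04, and signal from the partner genes cannot be told apart here. TRBJ2-6, a T cell receptor segment, was called lower at 1.36 and 2.09 against 3.60, 3.21 and 3.41. Its treated arrays were also among the 5 pairs furthest apart.

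The low dose was compared with the same 3 controls, so the values of both doses share them. Those of RHOB (2.96 at the low dose, 2.74 at the high), GEM (2.43 and 2.23) and INSIG1 (2.54 and 2.09) stood close to each other, and the values of KYNU (0.97 and 2.27) and EREG (0.31 and 1.40) were further apart. The differences of KYNU and EREG between the doses, 1.31 (adjusted p = 0.300) and 1.09 (adjusted p = 0.308), did not pass.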

How the data were processed

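The authors deposited 1 table of log2 values for 53617 probe sets on 8 arrays, made with the Transcriptome Analysis Console per the submitters' processing notes. The sources used here do not state its version, summarization or normalization. From the range of values the log base was taken as 2: the highest value, 12.1, exceeds the natural log of a 16-bit scanner's ceiling (11.09). Values were used as deposited. Of the rows, 23558 carried 1 gene symbol, 2155 several and 27904 were unnamed here. The row with the highest mean was kept for 618 genes with several rows, which left 22109.

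A mean per group was fitted with limma 3.58.1 in R 4.3.3 over all 8 arrays (5 residual and 6 prior degrees of freedom), with Benjamini-Hochberg adjustment over 22109 genes, after a test on simulated data. The number of arrays limits the precision. Genes named are the 15 largest rises and falls among called genes with non-overlapping arrays (leaving out small RNAs, pseudogenes, antisense, T cell receptor or immunoglobulin segments and uncharacterized genes), up to 5 called members of each of 35 lists (or the 3 with the smallest p, as values), all of the metallothionein list, up to 4 long non-coding RNAs a direction, and the 5 called genes whose treated arrays differed most. Other genes are values chosen after they were seen, to describe a list or a neighbour. The comparison, lists and rule were chosen with earlier results of these data known.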

Additional observations from a re-analysis of the deposited data

How the results depend on the processing

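The counts of genes higher and lower moved with most choices. None of the 180 called genes changed sign under any of the 20 alternatives that tested it. Leaving out or weighting arrays could not change a sign, because both high-dose arrays lay outside the control range for each of these genes. Against 94 higher and 86 lower, quantile normalization gave 327 and 135 and subtracting array medians 179 and 104, so that 70.8% and 63.3% of calls were higher in place of 52.2%, and the median of all genes moved from -0.12 to -0.02 in both. Array weights gave 235 and 769, the control and high arrays alone 37 and 9, a test against a 1.2-fold change 44 and 11, and leaving out control array 3, low-dose array 3 and high-dose array 2 together 562 and 1001. Leaving out 1 array at a time gave 13 to 250 higher and 1 to 740 lower: the lowest were without high-dose array 1 (13 and 6) and array 2 (23 and 1), the highest without control array 3. Without control array 1 the counts were 41 and 7, without array 2 42 and 11, and without low-dose array 1, 2 or 3 58 and 21, 59 and 28, 99 and 122. An intensity trend with a robust prior, either other rule for repeated rows and a minimum mean of 4 kept both counts within 1.5 times. Where an array of the high dose was left out, the lone array was assumed to vary like the other groups. The cause of these shifts was not tested.

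A fit with the replicate number as a replicate block gave 197 higher and 1031 lower over all 8 arrays, and 526 and 2157 over the control and high arrays alone. No high-dose array has number 3, so in the latter fit control array 3 was alone in its block. The median change of all genes there was -0.12456, as without control array 3, beside -0.11796 in the main fit. The counts 526 and 2157 therefore do not show the effect of pairing by number alone. The groups share numbers 1 and 2, and the deviations of same-numbered control and high arrays from their group means correlated at 0.094 and -0.049 over genes. For control and low-dose arrays these were 0.103, 0.153 and 0.203, and for low- and high-dose arrays 0.214 and -0.177. Differently numbered pairs ran from -0.179 to 0.122 for control and low-dose arrays, and from -0.274 to 0.274 for low- and high-dose arrays. Since not every same-numbered pair was over 0.1, the main fit did not pair the samples by number. The deviations of the 2 high-dose arrays are mirror images of each other (correlation -1). Pairs with the high dose therefore cannot decide whether the numbers pair the samples, which was left unsettled.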

Other observations

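MicroRNA hairpins were outside the rule for naming genes and were looked at after their values were seen. Of 1018 tested, MIR3671 and MIR548T rose and 5 fell, which is 0.688% called beside 0.814% of all genes. Their median control level was 1.54, and 0.067% of all genes with a control mean below 2 were called. The largest fall of any gene was the let-7a hairpin gene MIRLET7A2, from 6.09, 5.70 and 5.34 in the controls to 3.78 and 3.41 at the high dose (-2.11 ± 0.24, 4.32-fold, adjusted p = 0.00379 by limma), with the low-dose arrays at 5.39, 4.91 and 5.06 (-0.59, not called). MIR365A fell from 2.17, 2.66 and 2.05 to 0.99 and 0.68 (-1.46, adjusted p = 0.0175). The array's probes read the hairpin or its precursor, so the level of the mature RNA was not measured. The mature RefSeq sequences of these 2 hairpins are shown because they give the products of the genes that fell, with the seed (bases 2 to 8) in capitals, and their 4 seeds differ.
let-7a-5p: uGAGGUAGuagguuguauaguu
let-7a-2-3p: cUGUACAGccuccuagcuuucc
miR-365a-5p: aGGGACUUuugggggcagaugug
miR-365a-3p: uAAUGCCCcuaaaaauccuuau

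The tested gene next to MIRLET7A2 in the RefSeq gene order is BLID, which also fell, from 6.14, 6.20 and 6.01 to 5.08 and 4.46 (-1.35, adjusted p = 0.0435). The host transcript MIR100HG changed by -0.77 (adjusted p = 0.0960). MIR100 changed by -0.75 (adjusted p = 0.169) and MIR125B1 by -0.43 (adjusted p = 0.411). None of these was called. MIRLET7A2 was picked for its fall, so BLID is the only other call among the genes named here, while 0.389% of all genes were called lower. MIR193B, the hairpin gene next to MIR365A in the RefSeq gene order and looked up after the values were seen, changed by -0.01 (adjusted p = 0.983).

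Of the 94 genes that rose, 10 were called under every alternative that tested them: CXCL8, DDIT3, GDF15, GEM, INSIG1, KLHL24, MT1M, RHOB, STC1 and ZNF165. None of the 86 that fell was. STC1, which encodes the hormone stanniocalcin 1, went from 7.18, 7.27 and 6.85 to 9.17 and 9.08 (2.02). KLHL24, an adaptor of a ubiquitin ligase, went from 4.52, 4.39 and 4.61 to 6.89 and 6.29 (2.08). RRAGC (1.69) and FNIP1 (1.21), which act in nutrient sensing at the lysosome, rose without being in a list.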
